A study of Homo sapiens with 6 samples.

Results

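The folate genes described here are *FOLR1*, *SLC19A1* and *SLC46A1*, which bring folate into the cell, and *MTHFD1*, *SHMT1*, *MTHFD2*, *MTHFD1L* and *SHMT2*, which carry one-carbon units on it. They were listed by symbol, with earlier results of these data known, and all 8 were found among the 47470 genes counted. RNA-seq of wild-type HEK293T, an established line from human embryonic kidney that expresses SV40 large T antigen, was performed in 3 untreated libraries and 3 libraries of cells cultured with 1 mM VPA (valproic acid), which inhibits histone deacetylases, for 1 day. Fresh DMEM with fetal bovine serum was given in both groups, and VPA was the stated difference. The labels do not say whether the libraries came from separate cultures, so the p-values measure the spread between these libraries, which may be technical.

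Folate enters cells through the reduced folate carrier (*SLC19A1*), the proton-coupled folate transporter (*SLC46A1*) and the receptor FOLR1, which takes up folic acid by endocytosis. Inside the cell it carries one-carbon units in parallel routes. In mitochondria SHMT2 takes a one-carbon unit from serine, MTHFD2 oxidizes it and MTHFD1L releases it as formate. In the cytosol MTHFD1 puts formate back on folate for the synthesis of purines, thymidylate and methionine, and SHMT1 exchanges serine and glycine. Folate supply is known for its part in neural tube closure, and VPA taken in pregnancy is a known cause of neural tube defects.

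The total count on genes was between 18622267 and 18828495 per library. The epithelial and kidney line markers *KRT8*, *KRT18*, *VIM* and *PAX2* were counted in both groups and differed between them, with log2 fold changes of 1.37, 0.22, -0.27 and 2.26, all called in edgeR. Of 6 markers of other cells, *PTPRC*, *CD3E*, *PECAM1* and *CDH5* had group means of at most 3.84 normalized counts, while *COL1A1* had 433 and 1288 and *DCN* had 1.05 and 42.5 in untreated and VPA-treated cells. The part of these differences in the results was not tested. *CDKN1A*, known to respond to inhibitors of this class, had a log2 fold change of 0.66 (adjusted p = 3.33e-07 in edgeR). Less RNA of a gene per cell and fewer cells that make it cannot be told apart in these bulk libraries.

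The 250 bases before the start of the main transcript are shown for the folate genes whose responses are set against each other below, an enzyme of the mitochondrial route, both cytosolic enzymes and the reduced folate carrier. They are RefSeq sequences of GRCh38.p14 read 5′ to 3′ on the strand of the gene. The table used held 6 of the 8 genes, and 5 of them had a window that ended at the start of the MANE Select transcript in GENCODE 44. *FOLR1*, *SHMT2* and *MTHFD1L* had no such window. The windows span chr2:74198365-74198614 (*MTHFD2*, plus strand), chr14:64388103-64388352 (*MTHFD1*, plus strand), chr17:18363551-18363800 (*SHMT1*, minus strand) and chr21:45542441-45542690 (*SLC19A1*, minus strand). Capitals mark matches, on either strand, to the CCAAT box (CCAAT), the GC box (GGGCGG), the E-box (CACGTG) and the NRF1 motif (GCGC, any 2 bases, GCGC).
MTHFD2: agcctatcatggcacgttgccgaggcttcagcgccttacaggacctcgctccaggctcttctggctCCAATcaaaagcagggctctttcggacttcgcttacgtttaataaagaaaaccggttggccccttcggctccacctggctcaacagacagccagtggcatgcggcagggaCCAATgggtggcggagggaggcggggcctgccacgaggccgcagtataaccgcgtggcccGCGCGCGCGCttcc
MTHFD1: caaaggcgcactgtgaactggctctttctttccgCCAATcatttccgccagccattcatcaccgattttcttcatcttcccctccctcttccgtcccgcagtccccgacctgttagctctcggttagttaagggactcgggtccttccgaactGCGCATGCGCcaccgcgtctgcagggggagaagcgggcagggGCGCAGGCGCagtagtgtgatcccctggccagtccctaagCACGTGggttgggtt
SHMT1: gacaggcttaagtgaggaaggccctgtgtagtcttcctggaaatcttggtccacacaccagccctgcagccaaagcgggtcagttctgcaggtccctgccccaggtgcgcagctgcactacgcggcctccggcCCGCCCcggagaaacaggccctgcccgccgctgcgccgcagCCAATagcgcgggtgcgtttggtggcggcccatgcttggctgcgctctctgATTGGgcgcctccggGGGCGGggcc
SLC19A1: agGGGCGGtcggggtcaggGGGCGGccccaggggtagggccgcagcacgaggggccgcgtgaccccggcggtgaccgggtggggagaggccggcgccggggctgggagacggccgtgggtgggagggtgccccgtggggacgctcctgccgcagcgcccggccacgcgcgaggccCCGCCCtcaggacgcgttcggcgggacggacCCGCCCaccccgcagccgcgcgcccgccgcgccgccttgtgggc

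The windows differed in what they held, and no capitals overlapped between motifs. *MTHFD2* and *MTHFD1* both held a CCAAT box and the NRF1 motif, and *MTHFD1* also had an E-box whose last base lay 10 bases before its start. *SHMT1* had CCAAT and GC boxes, and *SLC19A1* had 4 GC boxes in a window of 82.8% G and C, against a median of 58.0% over all windows. The window of *SLC46A1*, which is not printed, held the NRF1 motif and a GC box. Among all 35116 windows of the same length, the CCAAT box was present in 32%, the GC box in 42.6%, the E-box in 6.34% and the NRF1 motif in 7.16%. The binding element of ATF4, searched as TGATGNAA, was in 3.14% of all windows and in 0 of these 5. With so low a share over all windows, its absence from 5 says little. These are matches of letters and were not tested as sites.

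Of the 8 folate genes, 7 had enough counts for edgeR's test. Lower expression in VPA-treated cells was called for 5 of these 7 (*SLC19A1*, *SLC46A1*, *MTHFD1*, *MTHFD2* and *MTHFD1L*) at an adjusted p under 0.05 in edgeR's quasi-likelihood test, against 30.0% of all 15298 tested genes. Higher expression was called for 0 of the 7, against 32.9% of all tested genes, and 0 were higher at an unadjusted p under 0.05. DESeq2, which tested all 8, also called 5 lower and 0 higher. At an unadjusted p under 0.05 in DESeq2, 6 were lower and 1, *FOLR1*, was higher. None of the 7 reached the study's fold change threshold for down-regulation, a log2 fold change of -1, which 0.503% of tested genes did in edgeR. The count at that threshold was also 0 with unadjusted p-values and in DESeq2. The median log2 fold change of the 7 genes was -0.17, beside 0.0058 over all tested genes. These calls rest on TMM, which assumes that most genes do not change or that changes balance between the directions. After it 32.9% of tested genes were called higher and 30.0% lower, so most were called changed. Past a log2 fold change of 1 in size, 1833 were called higher and 77 lower. Whether the assumption holds here was not tested. The direction of *SHMT1*, *SHMT2*, *MTHFD1* and *SLC46A1*, and the call of *SLC19A1*, depend on that scaling as described below.

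**Figure D1:**
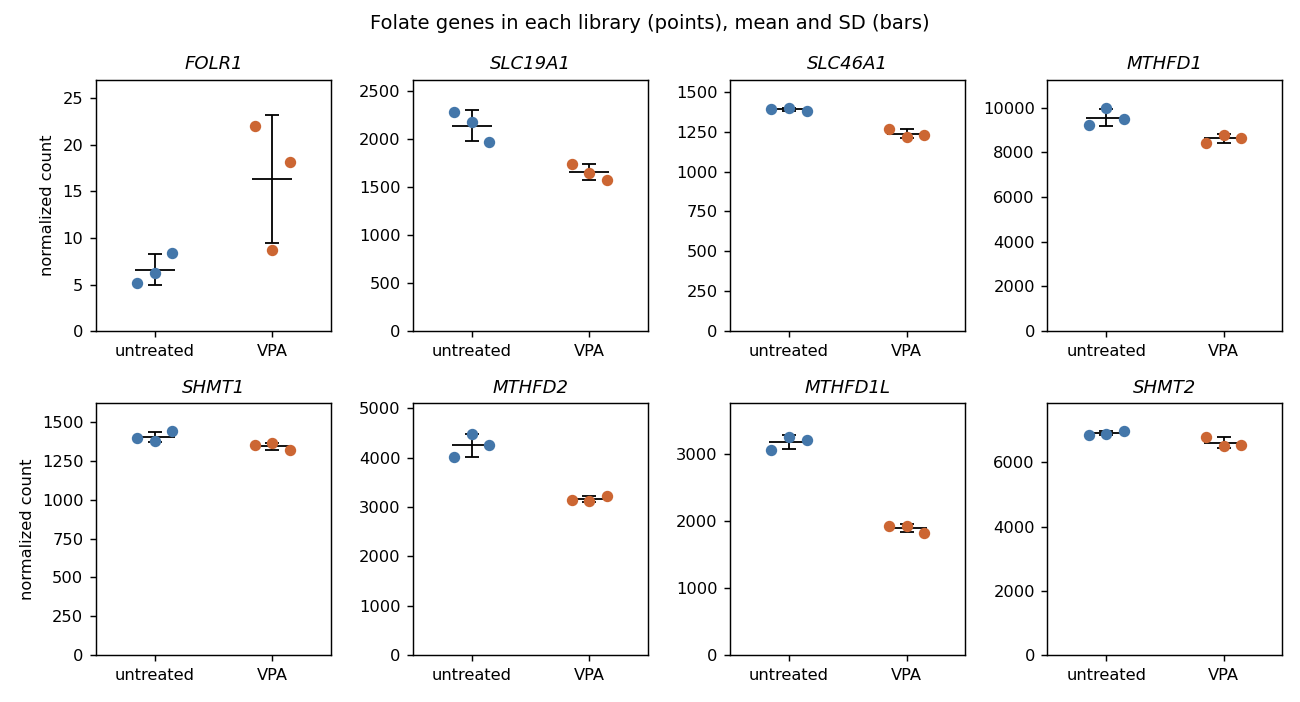
Normalized count (TMM, vertical axes from 0) of the 8 folate genes in each of the 3 untreated (blue) and 3 VPA-treated (orange) libraries, with the mean (long bar) and SD (error bar). *MTHFD1L* falls from a mean of 3179 to 1895, and *FOLR1* is the one gene with higher values in VPA-treated cells. The order of the groups for *SHMT1* and *SHMT2* turns when libraries are scaled by upper quartile, total counts or ribosomal protein genes, and for *SLC46A1* and *MTHFD1* with the last of these.

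Among the uptake genes the reduced folate carrier had the largest called decrease, and the receptor gene was barely expressed. *SLC19A1*, the reduced folate carrier, lies on the minus strand of chromosome 21 from 45502517 to 45563025. Normalized counts, which are scaled by TMM to the mean library, of 2282, 2182 and 1968 were found without VPA and of 1743, 1653 and 1580 with it. After this scaling every VPA-treated library was below every untreated one, and the untreated libraries were spread more widely, with a coefficient of variation of 7.47% where counting alone would give 2.21%. The estimated log2 fold change was -0.37 (SE 0.053, adjusted p = 3.08e-06 in edgeR), a mean change of -22.6%, and with ribosomal protein scaling it was -0.10 and not called. The end of the gene overlaps *COL18A1* on the plus strand, which had a log2 fold change of 0.59 (SE 0.060). The strand setting of the counting is not stated, and although the library protocol keeps strand, the part of reads from the opposite strand in these values was not tested, here or for the genes below.

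*SLC46A1*, the proton-coupled transporter, lies on the minus strand of chromosome 17 from 28394642 to 28406592. Its normalized counts were 1392, 1395 and 1380 in untreated libraries and 1268, 1217 and 1228 in VPA-treated libraries. After TMM the groups did not overlap, but as a share of all counts they did. The untreated libraries were within 0.570% of each other as a coefficient of variation, less than the 2.74% from counting. Its log2 fold change was -0.17 (SE 0.045, adjusted p = 0.0030 in edgeR) with TMM, and it turned to 0.10, not called, with a scaling by ribosomal protein genes. The gene shares 9408 bases with *SARM1* on the plus strand, which had a log2 fold change of 0.43.

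*FOLR1*, the folate receptor alpha, on the plus strand of chromosome 11 from 72189709 to 72196323, was close to the limit of detection. It lies within *FOLR1-AS1*, which was not analysed here. It had 5, 6 and 8 raw counts in untreated and 23, 9 and 19 in VPA-treated libraries, 70 in all. The lowest VPA-treated library was 1 count above the highest untreated one. The gene did not pass the filter, since 1 VPA-treated library was under the minimum. The summed counts of 19 and 51 gave a ratio of 2.47 after scaling, with an exact 95% interval of 1.43 to 4.43 that covers counting error only. Without the filter the log2 fold change was 1.27 (SE 0.38, adjusted p = 0.0032 in edgeR, where 20.7% of 26353 genes were called higher), while DESeq2 gave 1.28 (adjusted p = 0.0605). The other genes of the folate receptor family, *FOLR2*, *FOLR3* and *IZUMO1R*, had means of at most 1.28 normalized counts in either group.

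The mitochondrial enzymes held the largest change among the tested folate genes and, in *SHMT2*, one of the smallest. *MTHFD1L*, the mitochondrial formate-releasing synthetase, lies on the plus strand of chromosome 6 from 150865702 to 151101887. It had 3059, 3263 and 3215 normalized counts in untreated libraries and 1923, 1933 and 1829 in VPA-treated libraries. The gap between the groups was many times the spread within either, with standard deviations of 106 and 57.7 counts. The log2 fold change was -0.75 (SE 0.043, adjusted p = 2.26e-12 in edgeR), a mean change of -40.4%. Of all tested genes, 1.5% had a lower log2 fold change than *MTHFD1L*. This decrease was called in every setting tried, with values from -0.78 to -0.48.

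*MTHFD2*, the mitochondrial dehydrogenase and cyclohydrolase that is high in proliferating cells, lies on the plus strand of chromosome 2 from 74198615 to 74217565. Its normalized counts were 4020, 4484 and 4260 in untreated and 3150, 3118 and 3223 in VPA-treated libraries. The VPA-treated libraries were close to each other, with a coefficient of variation of 1.70%, and all were below the untreated ones. The estimated log2 fold change was -0.43 (SE 0.043, adjusted p = 2.16e-08 in edgeR), a mean change of -25.6%. RefSeq lists 7 pseudogenes of *MTHFD2*, and reads that fit a copy equally well were set aside in the counting. *MTHFD2P1*, the one pseudogene with an entry in the counts, is listed at 0. *SLC4A5* overlaps the last 1324 bases of the gene on the minus strand and had 14 to 65 counts per library.

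*SHMT2*, the mitochondrial serine hydroxymethyltransferase, on the plus strand of chromosome 12 from 57229711 to 57234935, was not called. It had 6866, 6873 and 6973 normalized counts in untreated and 6801, 6508 and 6550 in VPA-treated libraries. After TMM the groups did not overlap, but the highest VPA-treated library was close to the lowest untreated one. Its log2 fold change was -0.061 (SE 0.039, adjusted p = 0.178 in edgeR), with an approximate 95% interval of -0.17 to 0.047.

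Transcripts of the cytosolic enzymes differed little between the groups. *MTHFD1*, a protein with synthetase, cyclohydrolase and dehydrogenase activities, lies on the plus strand of chromosome 14 from 64388353 to 64460025. It was the most counted of the folate genes, with 9214, 9963 and 9485 normalized counts in untreated and 8407, 8792 and 8655 in VPA-treated libraries. The VPA-treated libraries were all lower after TMM, with a mean change of -9.80%, but they overlapped the untreated ones as a share of all counts. With TMM the log2 fold change was -0.15 (SE 0.041, adjusted p = 0.0036 in edgeR). *ZBTB25* overlaps the end of the gene on the minus strand, with 153 to 251 counts per library.

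*SHMT1*, the cytosolic serine hydroxymethyltransferase, lies on the minus strand of chromosome 17 from 18327873 to 18363550. Its normalized counts were 1396, 1379 and 1441 in untreated and 1353, 1364 and 1321 in VPA-treated libraries. All VPA-treated libraries were lower after TMM, and higher as a share of all counts, but the nearest libraries of the groups were within the spread of either group. The estimated log2 fold change was -0.062 (SE 0.045, adjusted p = 0.241 in edgeR), with an approximate 95% interval of -0.19 to 0.064. Over all 7 tested folate genes, every VPA-treated library was below every untreated one after TMM, a pattern seen in 31.0% of all tested genes, and for 0 of the 7 was every VPA-treated library above, beside 34.8% of all tested genes.

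How the libraries were scaled set the direction of the small changes. Per 100000 counts on genes, before TMM, *SHMT2* took 35.4, 34.9 and 35.4 in untreated and 38.0, 36.3 and 36.6 in VPA-treated libraries, and *SHMT1* took 7.187, 6.995 and 7.309 and then 7.552, 7.604 and 7.389. On that scale the VPA-treated libraries were the higher ones for both genes, the reverse of the order after TMM. With library totals alone the log2 fold changes were 0.071 for *SHMT2* and 0.070 for *SHMT1*, neither called. *MTHFD1* and *SLC46A1* were then at -0.017 and -0.035 and were no longer called. With a scaling by 74 ribosomal protein genes *MTHFD1*, *SHMT1* and *SHMT2* were called higher, with log2 fold changes of 0.12, 0.21 and 0.21 (adjusted p = 0.010, 5.03e-04 and 7.02e-05 in edgeR). The median of all tested genes moved with the scaling, from 0.0058 with TMM to 0.14 with library totals and 0.27 with ribosomal protein genes. A rescaling shifts all genes alike, so the distance of a gene to that median is fixed by construction, at -0.75 for *MTHFD1L*, -0.43 for *MTHFD2*, -0.38 for *SLC19A1* and between -0.066 and -0.068 for *SHMT1* and *SHMT2* under the 5 scalings.

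**Figure D2:**
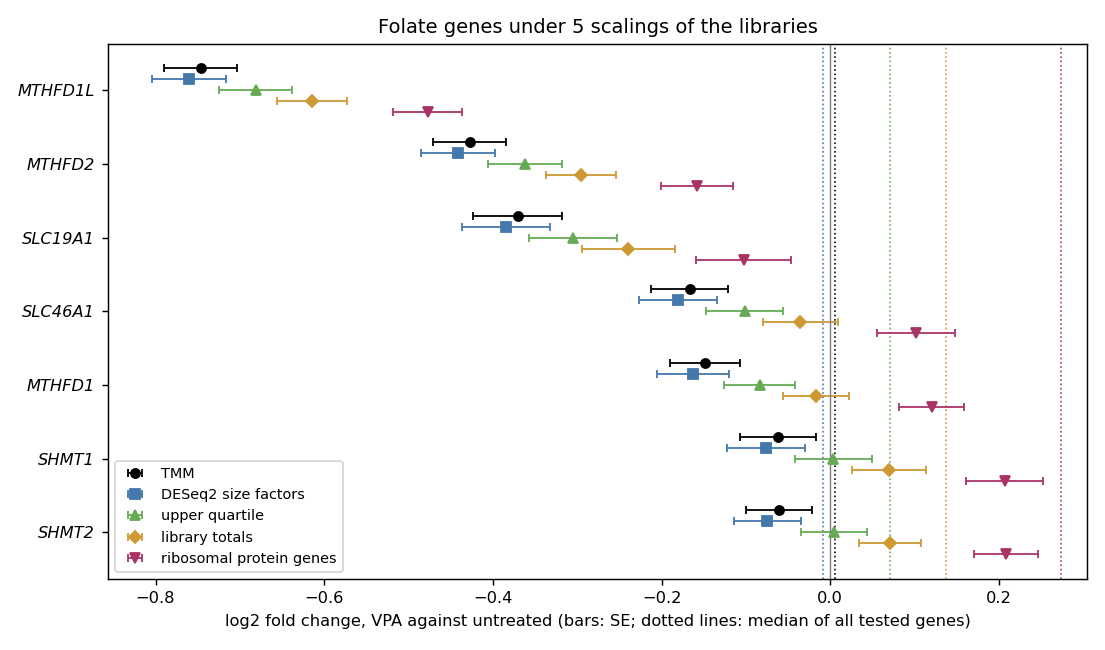
Log2 fold change of the 7 tested folate genes (horizontal axis, VPA-treated against untreated, bars are SE) under 5 scalings of the libraries, with the median of all tested genes under each scaling as a dotted line. *MTHFD1L* and *MTHFD2* stay below 0 under all 5, while *SHMT1* and *SHMT2* cross 0 and keep by construction the same distance to the dotted lines, and *SLC46A1* and *MTHFD1* cross 0 with ribosomal protein scaling.

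Ratios of counts within a library do not depend on the scaling and compare the transcripts for enzymes of the parallel routes directly. For 1 count of *MTHFD1* there were 0.332, 0.328 and 0.339 counts of *MTHFD1L* in untreated cells, and with VPA there were 0.229, 0.220 and 0.211. The groups were far apart, and the mean log2 ratio differed by -0.60. The ratio of *MTHFD2* to *MTHFD1* was 0.436, 0.450 and 0.449 in untreated and 0.375, 0.355 and 0.372 in VPA-treated libraries, a difference of -0.28 in log2. Transcripts of these mitochondrial enzymes were thus lower relative to those of the cytosolic one in all VPA-treated libraries.

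The ratio of *SHMT2* to *SHMT1* did not show this. It was 4.92, 4.98 and 4.84 in untreated and 5.03, 4.77 and 4.96 in VPA-treated libraries, with overlapping groups and a log2 difference of 0.00084 (exact permutation test, two-sided, p = 1). Leaving out single libraries moved that difference between -0.015 and 0.023. Summed over the enzymes, counts of *MTHFD2*, *MTHFD1L* and *SHMT2* were 1.31 ± 0.017 times those of *MTHFD1* and *SHMT1* in untreated and 1.17 ± 0.040 times in VPA-treated libraries (SD, n = 3 each), a log2 difference of -0.16. Between the transporters, the ratio of *SLC46A1* to *SLC19A1* was 0.650 ± 0.047 in untreated and 0.747 ± 0.027 in VPA-treated libraries (SD, n = 3 each), a log2 difference of 0.20. For each of the 4 ratios whose groups did not overlap the exact permutation test gave p = 0.1, two-sided, the smallest p that 3 libraries against 3 allow (0.13 after Benjamini-Hochberg adjustment over 5 ratios), so none could pass a threshold of 0.05.

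**Figure D3:**
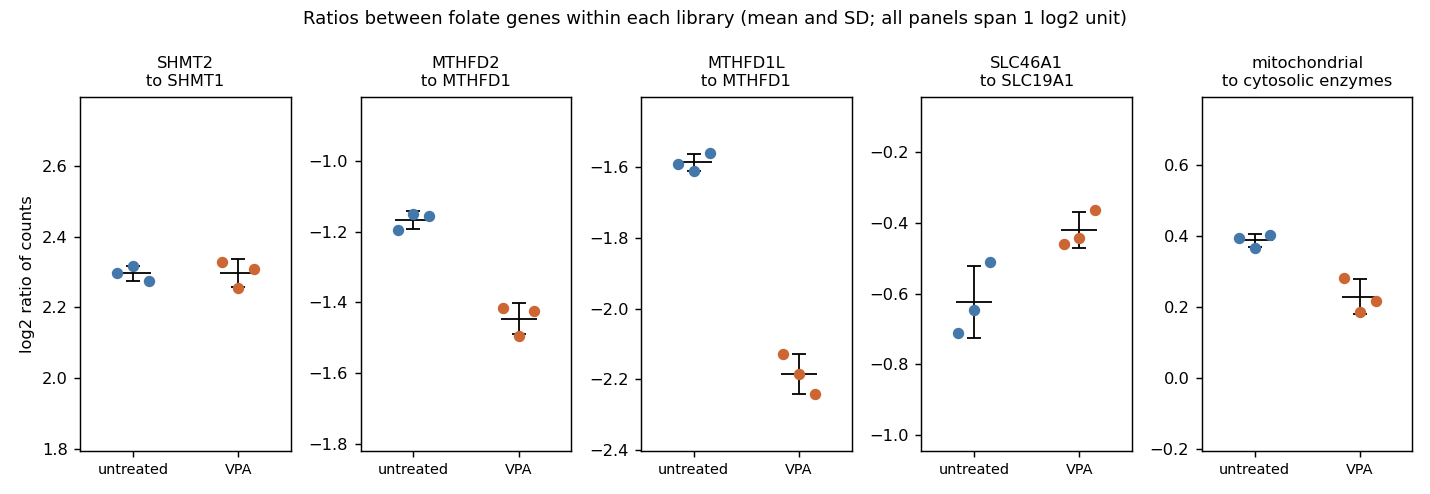
Log2 ratio of counts between folate genes within each untreated (blue) and VPA-treated (orange) library, with mean and SD, each panel spanning 1 log2 unit. *MTHFD1L* to *MTHFD1* differs by -0.60 between the groups, while *SHMT2* to *SHMT1* overlaps between the groups.

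Per length of the MANE Select transcript, the enzymes stood above the transporters, which stood above the receptor. In normalized counts per kilobase of the MANE Select transcript, the untreated means were 3201 ± 27.9 for *SHMT2*, 3029 ± 120 for *MTHFD1*, 966 ± 52.7 for *MTHFD2*, 921 ± 30.8 for *MTHFD1L*, 556 ± 12.8 for *SHMT1*, 430 ± 32.1 for *SLC19A1*, 214 ± 1.22 for *SLC46A1* and 7.12 ± 1.76 for *FOLR1* (SD, n = 3 each). In untreated cells *MTHFD2* and *MTHFD1L* overlapped in their ranges, and the other neighbours in this order did not. In VPA-treated cells the order was the same, but *MTHFD2*, at 719 ± 12.2, and *MTHFD1L*, at 549 ± 16.7, no longer overlapped, and *MTHFD1L* overlapped *SHMT1*, at 533 ± 8.79. The place of *MTHFD1*, *MTHFD2* and *MTHFD1L* relative to each other, and in VPA-treated cells that of the transporters, changed when the length of all annotated exons was used. With that length the untreated ranges of *SHMT1* (196.5 to 205.5) and *SLC19A1* (175.2 to 203.1) overlapped, as did those of *SLC19A1* and *SLC46A1*. These neighbours are therefore not ordered firmly.

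The genes whose pattern over the 6 libraries was most like that of each tested folate gene were found by Pearson's r of log2 CPM (counts relative to the scaled library total), as a description, among the 12189 genes that averaged 50 or more normalized counts. They were *PTCH1* for *MTHFD1L* (r = 1.00), *RAE1* for *MTHFD2* (r = 1.00), *BCL7B* for *SLC46A1* (r = 0.999), *FAAP100* for *SLC19A1* (r = 0.999), *TAB1* for *SHMT2* (r = 0.998), *SMARCAL1* for *MTHFD1* (r = 0.998) and *RPL39L* for *SHMT1* (r = 0.982). The 6 libraries share the contrast of treatment, so such values are common. For *MTHFD1L* 1794 genes had an r above 0.95, against 20 for *SHMT1*.

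The rest of folate and one-carbon metabolism was described by a list of 46 other genes, of which 37 were tested. Lower expression was called for 17 (45.9%) and higher for 10 (27.0%) in edgeR, beside 30.0% and 32.9% of all tested genes, and the median log2 fold change was -0.067 beside 0.0058. The counts depended on the scaling, with 14 higher and 10 lower with library totals and 22 higher and 5 lower with ribosomal protein genes. Since these scalings shift values mostly upward, they could turn genes called lower but hardly those called higher. Of the 17 called lower, *DLD* and *MTR* turned with library totals, and 8 turned with ribosomal protein genes, among them these, *GART*, *SFXN1*, *MTRR*, *AHCY* and *MMADHC*.

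The genes of thymidylate and purine synthesis were mostly called lower. *TYMS*, thymidylate synthase, had 3686 ± 192 normalized counts without VPA and 2544 ± 121 with it (SD, n = 3 each). It was lower by a log2 fold change of -0.53 (SE 0.046, adjusted p = 1.89e-09 in edgeR). Both folate-using enzymes of purine synthesis were called lower, *ATIC* with a log2 fold change of -0.30 and *GART* with a smaller one that turned with ribosomal protein scaling. With the latter *ATIC* was at -0.031 and not called.

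Among genes of folate retention and interconversion the directions were mixed. *FPGS*, which adds the glutamate tail that holds folate in the cell, had a log2 fold change of -0.45 (SE 0.064, adjusted p = 4.34e-06 in edgeR), and *GGH*, which removes that tail, was called higher. *SLC25A32*, the carrier of folate into mitochondria, was not called. *MTHFD2L*, the paralog of *MTHFD2*, was called lower, *ALDH1L2* and *ALDH1L1*, which oxidize formyl folate to carbon dioxide, were called higher, and *MTFMT* was not called. *ALDH1L1* had few counts, 10.1 ± 3.25 and 26.2 ± 2.99 (SD, n = 3 each), and its log2 fold change was 1.37 (SE 0.28, adjusted p = 2.51e-04 in edgeR). With raw counts of 7, 9 and 13 in untreated libraries, it entered the test through the VPA-treated group, and a minimum of 10 counts in every library left 8 genes of the wider list called higher in place of 10.

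Serine and glycine genes, the main source of one-carbon units, were mixed too. *GLDC*, which breaks down glycine in mitochondria, had 1579 ± 116 normalized counts without VPA and 2356 ± 73.8 with it (SD, n = 3 each). It was higher at a log2 fold change of 0.58 (SE 0.050, adjusted p = 2.07e-09 in edgeR). *SARDH*, which demethylates sarcosine, had a log2 fold change of 1.21 at means of 15.3 and 35.5. The serine synthesis genes *PSAT1* and *PSPH* and the mitochondrial serine transporter *SFXN1* were called lower, and *PHGDH* was not called. With ribosomal protein scaling *PSAT1* was at -0.089 and *PSPH* at -0.083, and *SFXN1* turned above 0. *SFXN3*, a member of the same transporter family, rose from 287 ± 20.1 to 811 ± 34.4 (SD, n = 3 each), and its log2 fold change was 1.5 (SE 0.066, adjusted p = 3.33e-14 in edgeR).

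In the methionine cycle 5 of 7 tested genes were called lower, *MTR*, *MTRR*, *MAT2A*, *MAT2B* and *AHCY*, of which *MTR*, *MTRR* and *AHCY* turned with ribosomal protein scaling, and 1 was called higher, beside 30.0% and 32.9% of all tested genes. The higher one was *MAT1A*, the liver form of methionine adenosyltransferase, with 4.52 ± 2.15 and 23.7 ± 3.01 normalized counts in the 2 groups (SD, n = 3 each) and 2.36 as log2 fold change (SE 0.36, adjusted p = 6.17e-06 in edgeR). All its untreated libraries were under the count minimum of 10, so it entered the test through the VPA-treated group alone and had to differ. In the handling of vitamin B12, the cofactor of methionine synthase, *CD320*, the receptor that takes it up, had a log2 fold change of -0.65 (SE 0.088, adjusted p = 6.82e-05 in edgeR). *MMADHC* was also called lower but turned with ribosomal protein scaling, where *CD320* kept its direction. *LMBRD1* and *TCN2* were called higher. *CUBN*, with a log2 fold change of 0.67, did not pass the test (adjusted p = 0.0504 in edgeR) but did with 3 of the scalings and without untreated replicate 2. Genes of this wider list that stand without a value under TMM were named after their calls were seen, because the counts were small.

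**Figure D4:**
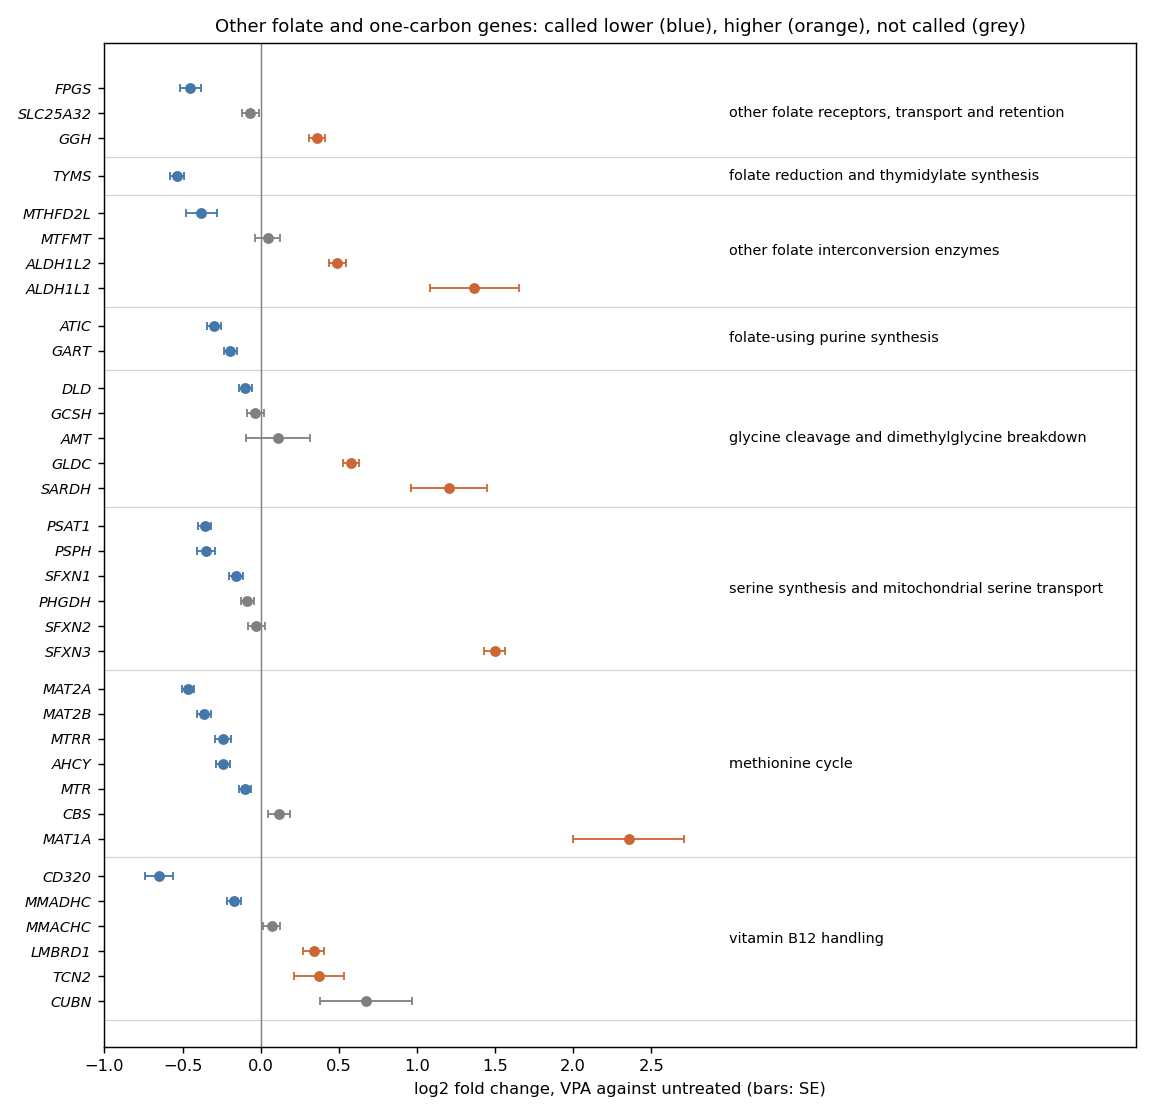
Log2 fold change (horizontal axis, VPA-treated against untreated, bars are SE) of 34 of the 37 tested genes of the wider folate and one-carbon list, grouped by role, called lower (blue), called higher (orange) or not called (grey) at an adjusted p under 0.05 in edgeR. *CD320* and *TYMS* have the lowest values and *MAT1A*, *SFXN3* and *ALDH1L1* the highest. Of the plotted genes called lower, 7 turn above 0 with ribosomal protein scaling.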

How the data were processed

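Counts per gene of 3 untreated and 3 VPA-treated HEK293T libraries were used. The authors deposited raw htseq-count counts per gene, without normalization, from strand-specific mRNA libraries whose reads were filtered by SOAPnuke and placed on hg38 by STAR. The submitters' processing notes give STAR 2.7.10b and HTSeq 2.0.1. The annotation and strand setting are not given in the sources used here. The 5 summary lines of the counting were left out. Reads off any gene were 6.80% to 7.69% of those listed, ambiguous ones 1.97% to 2.10% and those without a unique place 2.81% to 2.92%.

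The counts were tested over all genes with edgeR 4.0.16 in R 4.3.3 (TMM, filterByExpr with a count minimum of 10, robust quasi-likelihood fit on condition, prior count 0.125, Benjamini-Hochberg adjustment), and DESeq2 1.42.0 was an alternative. The call threshold was 0.05 on the adjusted p. Normalized counts are scaled to the mean library. SE was taken as the size of the fitted change over the square root of F, and approximate intervals use t with 4 degrees of freedom. Ratios within a library had 0.5 added to each count. The tests were checked on simulated counts in which few genes changed, evenly in both directions. That setting cannot show how the scaling does where many genes change, as here. Library pairs of a group had a chi-square per gene of 1.62 to 4.70, more than counting alone would give. Each library was therefore taken as 1 replicate, though this spread does not show that they came from separate cultures. Named by rule were all 8 folate genes, and of the wider list those called and past 0.5 in log2 fold change, and the strongest in each group. Other genes of the wider list were named after their calls were seen. The genes, lists and tests were chosen with earlier results of these data known. Coordinates are from RefSeq GRCh38.p14, and transcripts and lengths from GENCODE 44. ChIP-seq, Hi-C and imaging data were not analysed here. Single values of a few genes of the wider list are not reported here.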

Additional observations from a re-analysis of the deposited data

How the results depend on the processing

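*MTHFD1L* and *MTHFD2* were called lower in every alternative, and *SLC19A1* in all but 1. With upper quartile scaling *SLC46A1* and *MTHFD1* were at -0.10 and -0.083 and not called, *SHMT1* and *SHMT2* were at 0.0033 and 0.0045, and 3 folate genes were called lower in place of 5. With library totals these 4 genes were at -0.035, -0.017, 0.070 and 0.071, with 3 called lower, and 10 of the wider list were lower in place of 17. With ribosomal protein scaling *SLC19A1* was at -0.10 (adjusted p = 0.116 in edgeR), *SLC46A1* at 0.10, *MTHFD1* at 0.12, *SHMT1* at 0.21 and *SHMT2* at 0.21, 3 folate genes were called higher and 2 lower, and 22 of the wider list were higher and 5 lower. The scaling itself accounts for these shifts, since it moves all genes alike. Higher genes made up 52.3% of all calls under TMM. This share was 63.0% under upper quartile scaling, 73.9% under library totals and 91.4% when ribosomal protein genes set the scale. Without a filter on low counts 1 folate gene, *FOLR1*, was called higher in place of 0, and with DESeq2 it was at 1.28 and not called. Leaving out each library gave 5 folate genes lower throughout and 0 to 1 higher, where *FOLR1* passed the filter and was called higher without untreated replicate 1, 2 or 3 or VPA replicate 2, with log2 fold changes of 1.13 to 1.59. It met the minimum there through VPA-treated libraries alone, so these calls are no support. There were 8 to 11 genes of the wider list higher and 15 to 16 lower. The difference in the ratio of *SHMT2* to *SHMT1* lay between -0.015 and 0.023 there, and was below 0 without untreated replicate 3 (-0.010), VPA replicate 1 (-0.015) or VPA replicate 3 (-0.0050), all within its spread. The other ratios kept their direction throughout. The replicate block gave 5 folate genes lower and 0 higher and 18 and 10 of the wider list. Deviations of same-numbered libraries correlated with r of 0.139, 0.0214 and 0.0805, beside -0.107 to 0.0308 for libraries of unequal number. Untreated replicate 2 was slightly closer to VPA replicate 3 than to VPA replicate 2. The labels state no pairing, so the main fit used none, and whether equal numbers were handled together is not stated. With the block the SE of *SLC19A1* was 0.0345, in place of 0.0529. The block moved the calls over all genes to 5357 higher and 5100 lower and changed no call of the 7 tested folate genes. Depth limits *FOLR1*, *ALDH1L1*, *SARDH*, *MAT1A* and *CUBN*, whose errors are wide.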
